A study of Saccharomyces cerevisiae with 13 samples.

Results

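The comparison was the second hour of exposure to the lampricide TFM, measured as 2 arrays of RNA taken after 2 h of TFM against 2 arrays of RNA taken after 1 h. These were 4 of the 13 arrays of a time course in baker's yeast, picked out by the array titles. The comparison itself was chosen with earlier results of these data known. All cells were BY4741, a haploid laboratory strain of mating type a, brought to saturation at 30°C in YPGE, a rich medium whose carbon sources, glycerol and ethanol, cannot be fermented. The TFM arms received 0.05 mM TFM for 1, 2 or 4 h, and the arm called untreated received 2% isopropanol for the same times. The groups were time zero (2 arrays, taken before treatment although their label also names 2% isopropanol), TFM at 1, 2 and 4 h (2 arrays each), isopropanol at 1 and 4 h (2 arrays each) and isopropanol at 2 h, which had 1 array because the RNA of the other sample was poor. How much isopropanol, if any, the TFM cultures received is not stated in the labels. The 2 RNA samples of a group are called independent, but separate cultures are not mentioned, so each p-value covers the variation between RNA samples and that may be technical.

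TFM, 3-trifluoromethyl-4-nitrophenol, is a weak acid that carries protons across the inner mitochondrial membrane and so uncouples respiration from ATP synthesis. Yeast that grow on glycerol and ethanol depend on respiration, and in such cells the genes for fermentative sugar use are mostly held down. The plasma membrane sensors Snf3 and Rgt2 control the hexose transporter (HXT) genes by way of the repressor Rgt1 and its corepressors Mth1 and Std1, while the kinase Snf1 and the repressors Mig1 and Mig2 control genes that glucose switches off. A second circuit relevant to a foreign phenol is pleiotropic drug resistance, in which the transcription factors Pdr1 and Pdr3 drive membrane pumps such as Pdr5 and Snq2.

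Values were log2 RMA levels, in which a difference of 1 is a 2-fold change in array signal, for 5449 genes with 1 probe set each. Replicates of a group correlated across genes at Pearson r of 0.992 to 0.998. The TFM 2 h arrays differed more from each other than the TFM 1 h arrays did: the standard deviation of the replicate difference was 0.239 against 0.141, and 32 genes against 2 differed at least 2-fold between replicates. The mean 3′ minus 5′ signal of 7 control transcripts, a measure of RNA and labelling quality, was 1.32 and 1.39 after 1 h of TFM and 1.18 and 1.49 after 2 h, so the later pair lay on both sides of the earlier one. On these 4 arrays the 7 a-specific genes read from 8.99 to 14.1. LEU2, MET17 and URA3, which the strain lacks, read from 4.89 to 6.15, near the unspiked control probe sets with a mean of 5.04 and a highest value of 5.94. The 4 alpha-specific genes read from 6.81 to 12.2, and the fourth gene deleted in the strain, HIS3, read from 11.3 to 11.5, so not every marker followed the strain label. Whether the HIS3 probe set lies inside the deleted part of the gene is not known here. Each array averages over a culture, so a change in every cell and a change in a share of the cells cannot be told apart.

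Between 1 h and 2 h of TFM 21 genes rose and 9 fell, with the largest rises in IMA5, HXT3 and HXT4, genes of sugar use and uptake, and the largest falls in SOL4, PUN1 and BUD13, genes of different functions. These were 0.385% and 0.165% of the 5449 genes tested, or 0.551% in all (limma, Benjamini-Hochberg adjusted p under 0.05, 2 against 2 arrays). IMA5, HXT3, HXT4, YOR338W, YKR075C and YNL234W were the 6 genes that passed and rose at least 2-fold, and the largest fall, of SOL4, was 1.46-fold. For comparison, 5% of all genes lay above a log2 change of 0.28 and 5% lay below -0.28, with a median of -0.01. In all 30 genes both TFM 2 h arrays lay beyond both TFM 1 h arrays, an arrangement that 21.8% of all genes showed upward and 23.8% downward. The 30 genes were chosen by this same comparison, so such separation is favoured by the choice. It is given here and below as a description and adds no support to the calls. A log2 difference above 0 was found for 47.3% of all genes. An unadjusted p under 0.05 was reached by 816 genes, 377 of them higher (6.92%) and 439 lower (8.06%), where 272 are given by chance.

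Over the same hour with isopropanol 0 of 5449 genes passed in limma (0%), and 349 genes (6.40%) had an unadjusted p under 0.05. That test set 1 array against 2, so its count cannot be compared with the count from 2 against 2 TFM arrays. The 30 genes were chosen for their TFM difference, so a smaller isopropanol value in them follows from the choice and is given as a description. The median size of the log2 difference in the 30 genes was 0.56 with TFM and 0.11 with isopropanol. The largest isopropanol difference among them was that of YOR338W, at 0.73 beside 1.69 with TFM, and in 0 of the 30 genes did isopropanol give more than 50% of the TFM difference in the same direction. When the difference between the hourly changes was itself tested, 0 genes passed (0%) while 639 (11.7%) had an unadjusted p under 0.05. This test rested on 1 isopropanol 2 h array, and its median standard error was 0.15 against 0.10 for the change in TFM alone. The 5 genes of smallest p in it were STD1 (1.14, adjusted p = 0.0505), RRP36 (0.87, adjusted p = 0.0505), YNL234W (1.18, adjusted p = 0.0599), CIS1 (0.90, adjusted p = 0.0638) and HXT3 (1.83, adjusted p = 0.0748), all of which missed the threshold. None of the 30 changes is therefore shown to differ from the isopropanol arm by this test. With the isopropanol 2 h and 4 h arrays pooled as the later control, a choice made after seeing the data, 8 genes passed: HXT3, IMA5, STD1, YNL234W, CIS1, UBP11, RSB1 and RRP36.

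**Figure D1:**
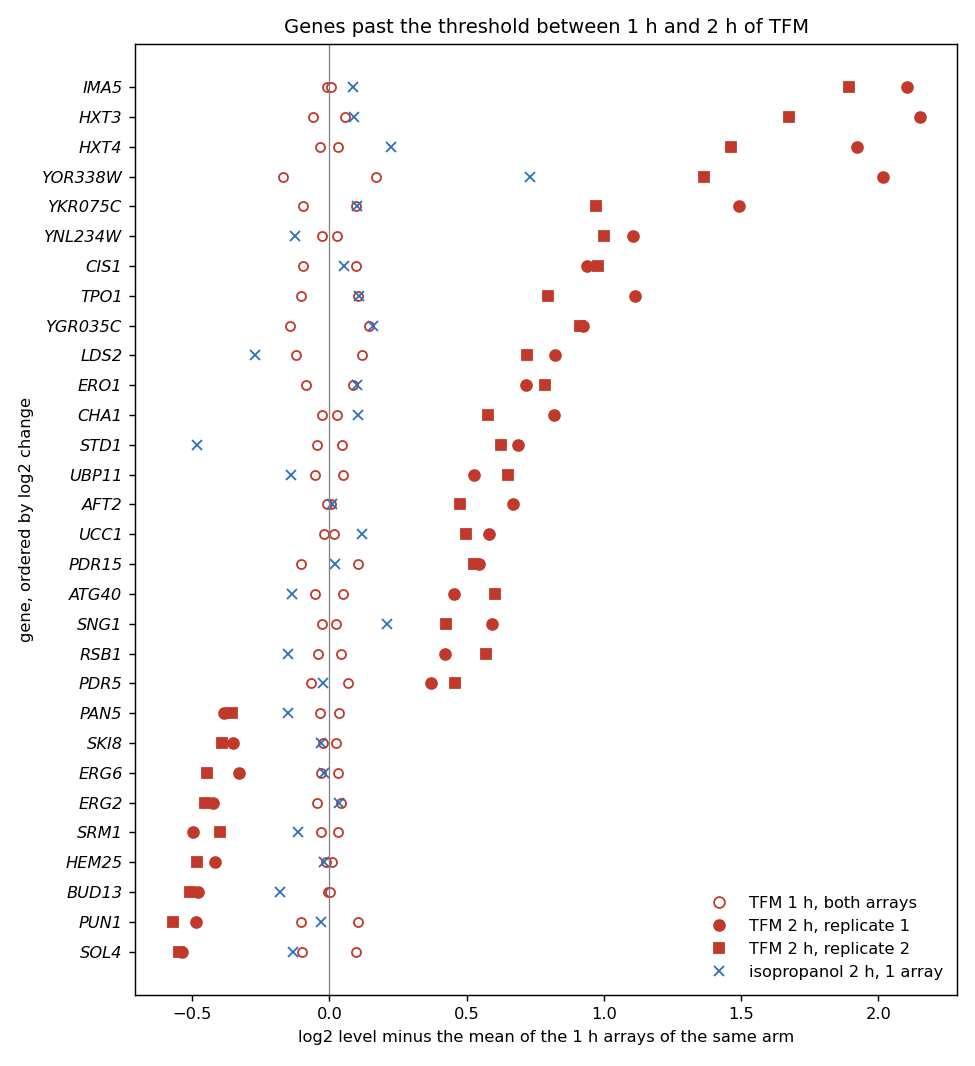
The 30 genes past the threshold, 1 per line, ordered by log2 change. The horizontal axis gives each array's log2 level minus the mean of the 1 h arrays of its own arm. Open circles are the TFM 1 h arrays, filled circles and squares the TFM 2 h arrays, and crosses the single isopropanol 2 h array. In every gene the filled symbols lie to one side of both open circles.

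The number of genes called changed with the arrays fitted, each of the 13 being left out in turn. For the TFM change, the fit without the single isopropanol 2 h array repeats the main fit. Leaving out either array of a pair outside the comparison gives the same result. The 13 fits are therefore not 13 separate checks. A called gene that passed in only 1 of them passed only in the repeat of the main fit. Without TFM 1 h replicate 1, 5 of the 30 genes still passed, and without TFM 1 h replicate 2, TFM 2 h replicate 1 or TFM 2 h replicate 2 this number was 8, 7 or 14; these fits also change the differences themselves and leave 1 array on that side. Leaving out an array outside the comparison, which changes only the estimate of spread, kept 13 (either time zero array), 17 (either isopropanol 1 h array), 24 (either TFM 4 h or either isopropanol 4 h array) or 30 (isopropanol 2 h). IMA5, HXT3, YNL234W and CIS1 passed in all 13 of these fits. Fitted to the 4 arrays alone the test called 4 genes higher (IMA5, YNL234W, MIG2 and HXT1) and 0 lower, and with the 3′ minus 5′ value as a covariate it called 57 higher and 30 lower.

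**Figure D2:**
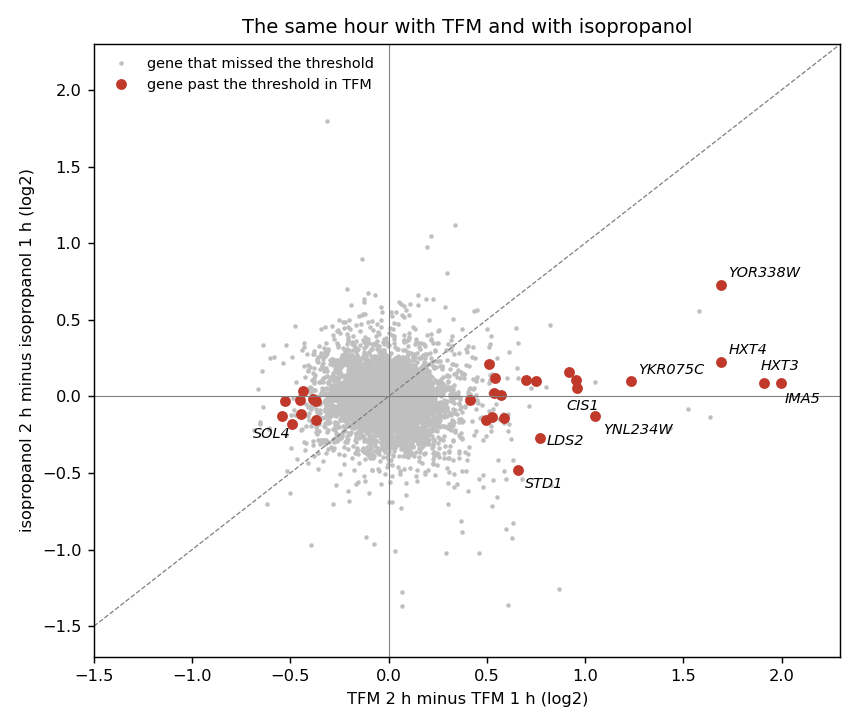
Log2 change over the same hour with TFM (horizontal axis) and with isopropanol (vertical axis), 1 point per gene for 5449 genes. Red points are the 30 genes past the threshold with TFM, and the dashed line marks equal change. The red points on the right spread along the horizontal axis while their isopropanol values lie between -0.48 and 0.73.

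The largest rises were those of IMA5, a gene of sugar use, and of the hexose carrier genes HXT3 and HXT4. IMA5 (YJL216C), which encodes an alpha-glucosidase that cleaves isomaltose-type sugars, read 10.44 and 10.46 after 1 h of TFM and 12.56 and 12.34 after 2 h. The pairs did not overlap, and the rise of 2.00 ± 0.19 on the log2 scale (SE, n = 2 against 2, adjusted p = 0.00237) was 4.00-fold, the largest among the genes that passed. Each SE and p-value rests on 1 spread per gene over all 13 arrays, assumed equal in all groups, and not on the 4 compared arrays alone. On the isopropanol arrays IMA5 read 8.28 and 8.58 at 1 h and 8.52 at 2 h. It was the only one of 10 genes of alpha-glucoside and sucrose use to pass, beside 0.385% of all genes higher. The median difference of that list was 0.09 with TFM and 0.11 with isopropanol. HXT3 (YDR345C), a low-affinity glucose carrier, moved from 11.72 and 11.60 to 13.81 and 13.34, a rise of 1.91 ± 0.17 (adjusted p = 0.00237) with no overlap. In isopropanol HXT3 read 10.98 and 10.57 at 1 h and 10.87 at 2 h, below each of the 4 TFM arrays. HXT4 (YHR092C), a glucose carrier of intermediate to high affinity, moved from 11.10 and 11.17 to 13.06 and 12.60, again without overlap. Its rise of 1.69 ± 0.21 (adjusted p = 0.0088) missed the threshold without TFM 1 h replicate 1 (1.66, adjusted p = 0.112), TFM 1 h replicate 2 (1.73, adjusted p = 0.0853) or TFM 2 h replicate 1 (1.46, adjusted p = 0.0512).

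Both of these carriers come from a list of 15 hexose transporter genes, of which 2 rose, 0 fell and 13 missed the threshold, beside 0.385% of all genes higher and 0.165% lower. The low-affinity carrier HXT1 (YHR094C) read 11.86 and 12.01 at 1 h and 13.31 and 13.43 at 2 h. The pairs were well apart, but the difference of 1.43 ± 0.31 did not pass (adjusted p = 0.0913). The spread in the test was taken over all groups, and the isopropanol 1 h replicates of HXT1 read 10.49 and 9.41. HXT8, a carrier of low expression, read 7.20 and 6.86 at 1 h and 9.09 and 8.01 at 2 h (1.52 ± 0.32, adjusted p = 0.085), with TFM 2 h replicate 1 well above replicate 2, and it passed without replicate 2 (2.06, adjusted p = 0.0162). Of the 5 measured carriers of intermediate or high affinity, 3 had a positive and 2 a negative difference, and HXT6 was not measured. Beside HXT4 with its rise of 1.69, HXT2 had a difference of 0.17 (adjusted p = 0.66) and HXT7 one of 0.21 (adjusted p = 0.21). HXT5 had the lowest of the 5, -0.06 (adjusted p = 0.78). The mean TFM 1 h levels of HXT2, HXT7 and HXT5 were 13.65 to 14.23. The median difference of the 15 genes was 0.05 with TFM and -0.12 with isopropanol, beside -0.01 and -0.02 over all genes. It was -0.08 without TFM 2 h replicate 2 and 0.82 with the dimmest 25% of genes left out, so neither its direction nor its size was stable. With TFM the median was 1.67 in the 2 low-affinity carriers and 0.17 in the 5 of intermediate or high affinity. In the 8 carriers of low expression it was 0.04. HXT genes are close in sequence, and whether each probe set reads its own gene alone was not tested.

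Among the regulators that act on these carriers, 1 of 30 glucose signalling genes rose and 0 fell, beside 0.385% of all genes higher and 0.165% lower. STD1 (YOR047C), a corepressor of HXT genes, read 9.37 and 9.28 at 1 h and 10.01 and 9.95 at 2 h, without overlap, a rise of 0.66 ± 0.09 (adjusted p = 0.0125). In isopropanol STD1 read 8.97 and 8.97 at 1 h and 8.49 at 2 h, a difference of -0.48. MTH1, the related corepressor, read 11.25 and 11.48 at 1 h and 12.66 and 12.16 at 2 h (1.05 ± 0.24, adjusted p = 0.100). MIG2, a repressor that glucose induces, read 8.83 and 8.86 at 1 h and 10.60 and 10.37 at 2 h (1.64 ± 0.30, adjusted p = 0.0551). Both gaps were wider than the spread of the TFM arrays, and neither gene passed in the fit to all 13 arrays. MIG1 (0.53, adjusted p = 0.0884), MIG3 (0.32, adjusted p = 0.23) and RGT1 (0.14, adjusted p = 0.46) also missed it. The sensor genes SNF3 and RGT2 had differences of 0.16 (adjusted p = 0.33) and -0.09 (adjusted p = 0.77), and the kinase gene SNF1 one of -0.05 (adjusted p = 0.76). The STD1 call was lost without TFM 1 h replicate 1 (0.70, adjusted p = 0.112), TFM 1 h replicate 2 (0.61, adjusted p = 0.118) or TFM 2 h replicate 1 (0.63, adjusted p = 0.0671), while leaving out either isopropanol 1 h array brought MIG2 past the threshold (adjusted p = 0.0248) and HXT1 likewise (adjusted p = 0.0314). MIG2 also passed without either isopropanol 4 h array (adjusted p = 0.0312). Fitted to the 6 TFM arrays MIG2 and HXT1 passed at adjusted p = 0.0066 and 0.00806, and both were among the 4 genes called from the 4 compared arrays alone (adjusted p = 0.0218 for each). MIG2 passed as well with a trended, robust variance (0.0222), median centring (0.0354), quantile normalization (0.0454), cyclic loess (0.041) and the 3′ minus 5′ covariate (0.0458), all adjusted p, where HXT1 did not.

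**Figure D3:**
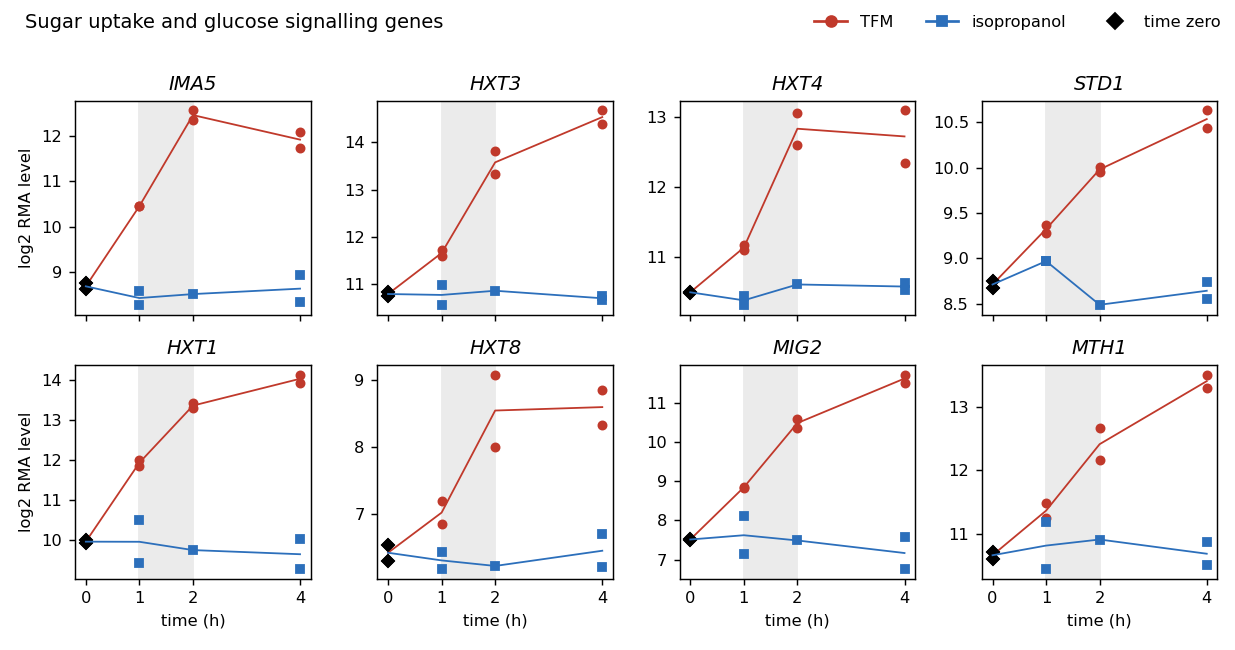
Log2 RMA level (vertical axes, each with its own range) against time in hours for 8 sugar uptake and glucose signalling genes. Points are single arrays, lines join group means, and the shaded band is the hour from 1 h to 2 h. Both TFM 2 h points (red) lie above both TFM 1 h points in all 8 panels, with IMA5, HXT3, HXT4 and STD1 past the threshold and HXT1, HXT8, MIG2 and MTH1 not. The isopropanol 2 h point (blue) lies below both TFM 2 h points in each panel, and time zero is in black.

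A further pair of little-studied genes rose at least 2-fold with the sugar genes. YKR075C, an uncharacterised gene whose product resembles the phosphatase subunit Reg1, read 11.84 and 12.04 at 1 h and 13.43 and 12.91 at 2 h (1.23 ± 0.15, adjusted p = 0.0088). YOR338W, an uncharacterised gene, read 10.20 and 9.86 at 1 h and 12.05 and 11.40 at 2 h (1.69 ± 0.20, adjusted p = 0.00739). Neither gene overlapped between the times. YOR338W also read higher in isopropanol at 2 h (9.997) than at 1 h (9.16 and 9.38), a difference of 0.73, while those of the other 5 largest rises lay between -0.13 and 0.23. YNL234W, which encodes a globin-like heme protein, read 9.36 and 9.30 at 1 h and 10.44 and 10.33 at 2 h (1.05 ± 0.10, adjusted p = 0.00237). YKR075C missed the threshold without TFM 1 h replicate 1 (1.14, adjusted p = 0.112) and YOR338W without TFM 1 h replicate 2 (1.52, adjusted p = 0.0782).

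Of 23 genes of pleiotropic drug resistance, 5 rose and 0 fell, beside 0.385% and 0.165% of all genes. CIS1 (YLR346C), a small gene that responds to drugs through Pdr1 and Pdr3, read 9.63 and 9.43 at 1 h and 10.47 and 10.51 at 2 h. This was a rise of 0.96 ± 0.08 (adjusted p = 0.00237) with no overlap, and its isopropanol difference was 0.05. Its paralog YGR035C, which the list did not hold, read 10.67 and 10.96 at 1 h and 11.74 and 11.73 at 2 h (0.92 ± 0.11, adjusted p = 0.0088). TPO1 (YLL028W), a plasma membrane exporter of polyamines, read 11.60 and 11.81 at 1 h and 12.82 and 12.50 at 2 h (0.95 ± 0.10, adjusted p = 0.00568). In CIS1, YGR035C and TPO1 both later arrays lay above both earlier ones. RSB1 (YOR049C), which exports sphingoid long-chain bases, read 11.02 and 11.10 at 1 h and 11.48 and 11.63 at 2 h (0.50 ± 0.08, adjusted p = 0.0256). PDR5 (YOR153W), the main multidrug pump, read 14.03 and 14.16 at 1 h and 14.46 and 14.55 at 2 h (0.41 ± 0.07, adjusted p = 0.0372). PDR15 (YDR406W), a close relative of PDR5, read 13.13 and 13.34 at 1 h and 13.78 and 13.76 at 2 h (0.54 ± 0.09, adjusted p = 0.0473). Neither pump overlapped between the times.

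The other 18 genes of the list missed the threshold. SNQ2, a multidrug pump, had a difference of 0.33 ± 0.06 (adjusted p = 0.0739), and YOR1, another pump, one of 0.36 ± 0.08 (adjusted p = 0.0913). PDR16, a lipid transfer protein gene, had 0.53 (adjusted p = 0.13) and PDR12, the pump for weak organic acids, 0.61 (adjusted p = 0.19), with PDR12 reading 12.13 and 12.63 at 1 h and 13.18 and 12.81 at 2 h. The differences of the transcription factor genes were 0.12 (PDR1, adjusted p = 0.57) and 0.24 (PDR3, adjusted p = 0.26). QDR2, a pump for drugs and ions, had the lowest value, -0.33 (adjusted p = 0.28). In all, 20 of the 23 genes had a positive difference, and in 15 both TFM 2 h arrays lay above both TFM 1 h arrays (65.2%, beside 21.8% of all genes). Their median was 0.24 with TFM and 0.02 with isopropanol. The TFM median ran from 0.23 without TFM 2 h replicate 2 to 0.33 with the dimmest 25% of genes left out. Settings that change only the estimate of spread cannot move it. The median level of the list had a standard deviation of 0.14 between replicates of the compared groups. The list was put together with earlier results of these data known, so these counts describe it and do not test it. Outside the list SNG1, a gene known for resistance to nitrosoguanidine, rose by 0.51 ± 0.09 (adjusted p = 0.0477), with 11.84 and 11.90 at 1 h and 12.46 and 12.29 at 2 h. CIS1 passed in each of the 13 fits that left out an array, TPO1 missed only without TFM 1 h replicate 1 (0.85, adjusted p = 0.0741), and YGR035C missed there (0.77, adjusted p = 0.0967) and without TFM 2 h replicate 1 (0.91, adjusted p = 0.0512). RSB1, PDR15, PDR5 and SNG1 passed in 7, 3, 1 and 1 of the 13, with the highest adjusted p values, 0.280, 0.396, 0.396 and 0.396, all without TFM 1 h replicate 1.

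**Figure D4:**
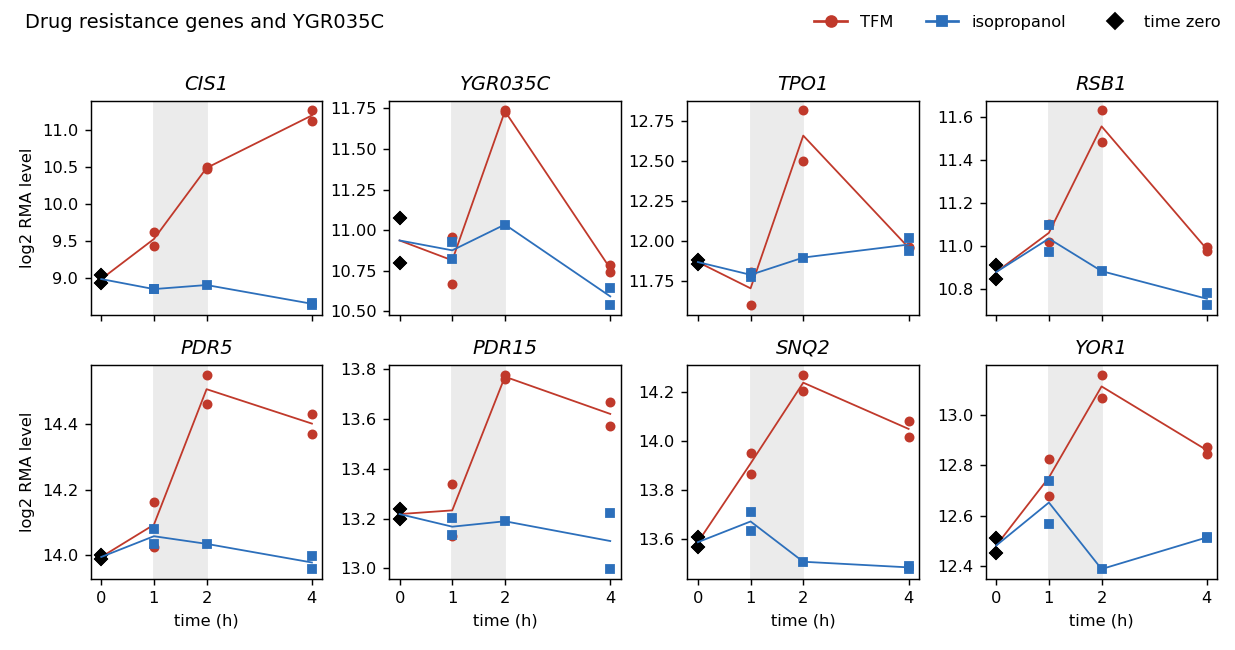
Log2 RMA level (vertical axes, each with its own range) against time in hours for 8 drug resistance genes and relatives. Points are single arrays, lines join group means, and the shaded band is the hour from 1 h to 2 h. CIS1, YGR035C, TPO1, RSB1, PDR5 and PDR15 passed the threshold in the band, and SNQ2 and YOR1 did not. YGR035C, TPO1 and RSB1 read lower again at 4 h, whereas CIS1 read higher.

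The remaining rises came from genes of several functions, each by less than 2-fold. ERO1 (YML130C), the thiol oxidase that makes disulfide bonds in the endoplasmic reticulum, read 11.33 and 11.16 at 1 h and 11.96 and 12.03 at 2 h (0.75 ± 0.10, adjusted p = 0.0125). It was the only one of 20 endoplasmic reticulum folding genes to pass, beside 0.385% of all genes higher and 0.165% lower. The median of that list was -0.05. ATG40 (YOR152C), a receptor for autophagy of the endoplasmic reticulum, read 11.24 and 11.34 at 1 h and 11.75 and 11.90 at 2 h (0.53 ± 0.08, adjusted p = 0.0268), the only one of 31 autophagy genes. AFT2 (YPL202C), an activator of iron uptake genes, read 10.23 and 10.22 at 1 h and 10.89 and 10.70 at 2 h (0.57 ± 0.09, adjusted p = 0.0256), the only one of 39 genes of iron, copper and zinc handling. The medians of the autophagy and metal lists were -0.08 and 0.02, beside -0.01 for all genes. Both TFM 2 h arrays lay below both TFM 1 h arrays in 9 of the 20 folding genes and 11 of the 31 autophagy genes (45.0% and 35.5%, beside 23.8% of all genes), 0 of which passed.

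Another 4 rises belonged to no list. LDS2 (YOL047C), whose product sits on lipid droplets during spore wall formation, read 7.56 and 7.81 at 1 h and 8.51 and 8.40 at 2 h (0.77 ± 0.14, adjusted p = 0.0477). CHA1 (YCL064C), the serine and threonine deaminase, read 11.11 and 11.17 at 1 h and 11.96 and 11.72 at 2 h (0.70 ± 0.11, adjusted p = 0.0293). Neither gene overlapped between the times, and LDS2 had a difference of -0.27 in isopropanol. UBP11 (YKR098C), a ubiquitin-specific protease, rose by 0.59 ± 0.09 (adjusted p = 0.0214) from 10.18 and 10.28 to 10.76 and 10.88. UCC1 (YLR224W), an F-box protein that marks the citrate synthase Cit2 for breakdown, rose by 0.54 ± 0.07 (adjusted p = 0.0088) from 11.08 and 11.11 to 11.68 and 11.59. UCC1, PDR15, SNG1 and PDR5 lay outside the rule for named genes and are given because they complete the 30. ERO1 and UCC1 passed in 9 and 10 of the 13 fits that left out an array, ATG40, UBP11, AFT2 and CHA1 in 7, 7, 6 and 6, and LDS2 in 3. ERO1 had its highest adjusted p without TFM 1 h replicate 2 (0.115) and the others without TFM 1 h replicate 1, from 0.112 for UCC1 to 0.396 for LDS2.

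The 9 falls were small, between 0.37 and 0.54 on the log2 scale in size, and 2 of them were enzymes of ergosterol synthesis, the pathway to the main sterol of yeast membranes. ERG2 (YMR202W), the sterol isomerase, read 12.64 and 12.73 at 1 h and 12.26 and 12.23 at 2 h (-0.44 ± 0.07, adjusted p = 0.0268). ERG6 (YML008C), the sterol methyltransferase, read 13.63 and 13.69 at 1 h and 13.33 and 13.21 at 2 h (-0.39 ± 0.07, adjusted p = 0.0377). In both genes the later pair lay below the earlier one, and their isopropanol differences were 0.03 and -0.02. Of 26 ergosterol genes 2 fell, 0 rose and 24 missed the threshold, beside 0.165% of all genes lower and 0.385% higher. In 20 the difference was negative, and in 14 (53.8%, beside 23.8% of all genes) both TFM 2 h arrays lay below both TFM 1 h arrays. ERG26 (-0.43, adjusted p = 0.0772), ERG12 (-0.34, adjusted p = 0.14) and ERG11 (-0.26, adjusted p = 0.14), enzymes of the same pathway, missed the threshold, and IDI1, the isoprenoid isomerase, had the highest value (0.27, adjusted p = 0.21). The median of the list was -0.12 with TFM and 0.03 with isopropanol, and it ran from -0.23 without TFM 2 h replicate 1 to -0.07 without TFM 2 h replicate 2. ERG2 passed in 5 and ERG6 in 1 of the 13 fits that left out an array, with adjusted p up to 0.155 and 0.230, both without TFM 1 h replicate 1.

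SOL4 (YGR248W), a 6-phosphogluconolactonase of the pentose phosphate pathway, which makes NADPH and pentoses from glucose 6-phosphate, read 12.80 and 12.61 at 1 h and 12.17 and 12.16 at 2 h. Its fall was -0.54 ± 0.08 (adjusted p = 0.0232) with no overlap, and its isopropanol difference was -0.13. It was the only one of 11 genes of the pathway to pass, beside 0.165% of all genes lower and 0.385% higher. TKL2, a transketolase, had the lowest value of the pathway (-0.62 ± 0.26, adjusted p = 0.31), but its TFM 2 h arrays read 11.74 and 12.56 beside 13.004 and 12.53 at 1 h and overlapped them, and its isopropanol difference was -0.70. GND2, a phosphogluconate dehydrogenase (-0.40, adjusted p = 0.0913), SOL3, the paralog of SOL4 (-0.37, adjusted p = 0.14), and NQM1, a transaldolase-like gene (-0.35, adjusted p = 0.14), missed the threshold. The first enzyme of the pathway, ZWF1, had a difference of 0.03 (adjusted p = 0.88). In 7 of the 11 genes (63.6%, beside 23.8% of all genes) both 2 h arrays lay below both 1 h arrays, and the median was -0.20 with TFM and 0.04 with isopropanol. SOL4 passed in 6 of the 13 fits that left out an array, with the highest adjusted p, 0.230, without TFM 1 h replicate 1, where its difference was -0.44.

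The other falls belonged to no list. PUN1 (YLR414C), a plasma membrane protein, read 14.29 and 14.08 at 1 h and 13.70 and 13.62 at 2 h (-0.53 ± 0.09, adjusted p = 0.044). BUD13 (YGL174W), a subunit of a complex for pre-mRNA splicing and retention, read 9.48 and 9.48 at 1 h and 9.001 and 8.97 at 2 h (-0.49 ± 0.06, adjusted p = 0.00886). HEM25 (YDL119C), the mitochondrial glycine carrier of heme synthesis, read 9.83 and 9.81 at 1 h and 9.40 and 9.34 at 2 h (-0.45 ± 0.06, adjusted p = 0.0182). In all 3 genes the later pair lay below the earlier one. SRM1 (YGL097W), the exchange factor for the nuclear transport GTPase Ran, fell by 0.45 on the log2 scale from 11.60 and 11.66 to 11.14 and 11.23 (adjusted p = 0.0294). SKI8 (YGL213C), a subunit of the Ski complex for mRNA decay, fell by 0.37 from 11.17 and 11.12 to 10.79 and 10.75 (adjusted p = 0.0256). PAN5 (YHR063C), a reductase of pantothenate synthesis, fell by 0.37 from 11.88 and 11.95 to 11.53 and 11.56 (adjusted p = 0.0477). BUD13 passed in 10 of the 13 fits that left out an array, HEM25 in 7, SKI8 and SRM1 in 5 each, and PUN1 and PAN5 in 1 each. All 6 had their highest adjusted p without TFM 1 h replicate 1, from 0.112 for BUD13 to 0.396 for PUN1.

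Of the 39 gene lists, 9 held at least 1 gene that passed and 30 held none, and 15 of the 30 genes were in no list. Over all genes 0.551% passed in either direction. A count of 0 in a list is near that share and is no result about its genes. Ribosome assembly factors, which build the ribosomal subunits in the nucleolus, had 0 of 107 genes past the threshold in either direction. In 98 of them the difference was positive, in 63 (58.9%, beside 21.8% of all genes) both TFM 2 h arrays lay above both TFM 1 h arrays, and the median was 0.20 with TFM and -0.07 with isopropanol. NOP15, a factor of the large subunit, read 11.21 and 11.38 at 1 h and 11.86 and 11.76 at 2 h (0.51 ± 0.11, adjusted p = 0.0772). RRP36, a factor of the small subunit, read 7.11 and 7.02 at 1 h and 7.41 and 7.32 at 2 h (0.30 ± 0.07, adjusted p = 0.10), while in isopropanol it read 7.16 and 7.22 at 1 h and 6.62 at 2 h. The median of the list ran from 0.14 without TFM 2 h replicate 1 to 0.25 without TFM 2 h replicate 2. RNA polymerases I and III, which transcribe ribosomal and transfer RNA, had 0 of 28 genes past the threshold, 23 positive differences and a median of 0.13 that was 0.07 without TFM 1 h replicate 1. Both TFM 2 h arrays lay above both TFM 1 h arrays in 15 of the 28 (53.6%, beside 21.8% of all genes) and below them in 1. RPC82, a subunit of RNA polymerase III, had a difference of 0.36 (adjusted p = 0.0913) with TFM and 0.28 with isopropanol.

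Of 128 cytosolic ribosomal protein genes 0 passed, beside 0.551% of all genes. There were 40 with a positive and 88 with a negative difference, and the median was -0.04 with TFM and 0.07 with isopropanol. Both TFM 2 h arrays lay below both TFM 1 h arrays in 45 of the 128 (35.2%, beside 23.8% of all genes) and above them in 8. Heat shock and chaperone genes also had 0 of 25 past the threshold, with 23 positive differences, where 47.3% of all genes had one. In 7 of the 25 (28.0%, beside 21.8% of all genes) both TFM 2 h arrays lay above both TFM 1 h arrays. The median was 0.10, and it was 0.03 without TFM 1 h replicate 2. SSC1, the mitochondrial matrix Hsp70, had the smallest p of that list (0.16, adjusted p = 0.32).

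Respiration is the process that an uncoupler acts on. Of 40 genes of the respiratory chain and ATP synthase 0 passed, 33 had a positive difference, in 18 (45.0%, beside 21.8% of all genes) both TFM 2 h arrays lay above both TFM 1 h arrays, and the median was 0.05 with TFM and 0.06 with isopropanol. QCR8, a subunit of complex III, had the smallest p (0.18, adjusted p = 0.38). None of 18 genes of the tricarboxylic acid cycle passed. As 0.551% of all genes passed, these counts of 0 do not set the lists apart from all genes. Of the 18 genes, 15 had a positive difference, 11 (61.1%) had both later arrays above both earlier ones, and the median was 0.05 with TFM and 0.03 with isopropanol. None of 20 glycolysis genes passed, and their median was 0.00. In the trehalose and glycogen list, which covers the storage carbohydrates, 0 of 17 genes passed, 14 had a negative difference, and the median was -0.07 with TFM and -0.05 with isopropanol. Both TFM 2 h arrays lay below both TFM 1 h arrays in 8 of the 17 (47.1%, beside 23.8% of all genes) and above them in 0. PGM2, the main phosphoglucomutase, had the smallest p (-0.29, adjusted p = 0.11). IME1, the inducer of meiosis, read 11.53 and 11.26 at 1 h and 10.94 and 10.55 at 2 h (-0.65 ± 0.13, adjusted p = 0.0772), the smallest p of a list of 37 meiosis and sporulation genes, none of which passed.

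**Figure D5:**
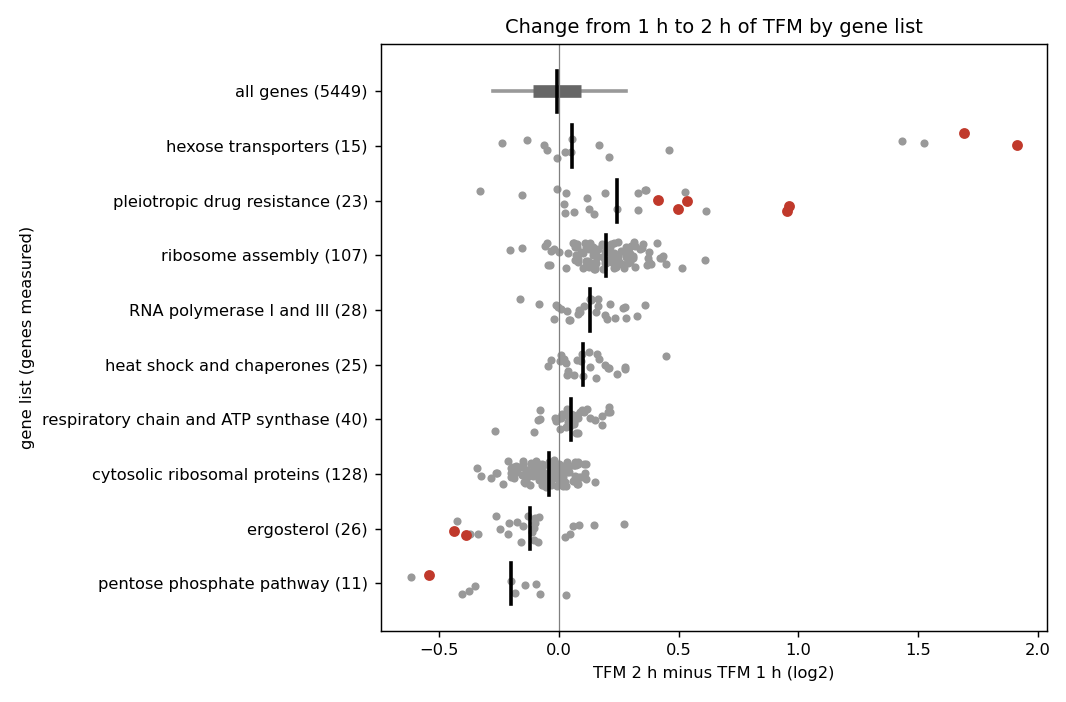
Log2 change from 1 h to 2 h of TFM (horizontal axis), 1 point per gene, for 9 of the gene lists, with the number of genes measured in brackets. Red points passed the threshold and black bars are medians. For all genes the thick bar runs from the 25th to the 75th percentile and the thin line from the 5th to the 95th. Drug resistance (median 0.24) and ribosome assembly (0.20) lie to the right of all genes, while ergosterol (-0.12) and the pentose phosphate pathway (-0.20) lie to the left.

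The levels at 4 h place the second hour within the course. The change from 2 h to 4 h shares the TFM 2 h arrays with the change from 1 h to 2 h, so the values are set side by side without an overlap or a correlation. The genes named here were chosen by those same arrays. A reversal after 2 h is therefore favoured by the choice, and the p-values of single genes below do not allow for it. Across all genes 2908 (53.4%) passed between 2 h and 4 h, 1363 higher and 1545 lower. HXT3 changed by 0.95 (adjusted p = 0.0013), YOR338W by 1.97 (adjusted p = 4.75e-05), YKR075C by 0.97 (adjusted p = 0.000547) and CIS1 by 0.71 (adjusted p = 0.000103) in those 2 h, so each rose again. LDS2, which rose by 0.77 in the second hour, rose by 1.57 after it (adjusted p = 2.44e-05), and UCC1 rose by 1.24 (adjusted p = 4.48e-06). HXT4 had a difference of -0.11 (adjusted p = 0.69) and ERO1 one of -0.03 (adjusted p = 0.85), neither of which passed. YGR035C fell by 0.97 (adjusted p = 0.000107), TPO1 fell by 0.70 (adjusted p = 0.000447), RSB1 fell by 0.57 (adjusted p = 0.00023) and IMA5 fell by 0.54 (adjusted p = 0.0368). YGR035C then read 10.74 and 10.79 and TPO1 11.96 and 11.96, close to their time zero levels of 11.07 and 10.80 and of 11.88 and 11.86. Among the genes that had fallen, PUN1 rose by 0.44 (adjusted p = 0.00275), while ERG6 fell by a further 0.67 (adjusted p = 4.14e-05) and SKI8 by a further 0.74 (adjusted p = 1.52e-05). The ribosome assembly list had a median of -0.54 from 2 h to 4 h, with 71 of its 107 genes lower past the threshold, beside its median of 0.20 in the second hour.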

How the data were processed

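Total RNA was labelled with an Enzo kit, per the labels' protocols, and hybridised to 1-colour yeast arrays. The deposited log2 values were made by the authors with RMA, per the submitters' processing notes; its version and probe set definitions are not given in the sources used here. RMA corrects background and usually gives all arrays 1 distribution, so changes are relative to the array. Of 5900 probe sets, 184 were controls, 5498 had 1 gene in the platform annotation and 218 had none. Symbols were updated through the RefSeq gene table (12 changed), and 47 genes with several probe sets kept the one with the highest mean, leaving 5449 genes.

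All 13 arrays entered 1 model of 7 group means in limma 3.58.1 under R 4.3.3, with default eBayes (6 residual and 3.52 prior degrees of freedom). P-values were two-sided and adjusted over 5449 genes by Benjamini-Hochberg. The number of arrays limits the precision. On simulated data with 200 changed genes, this step recovered 62.7, 98.5 and 97.0% of log2 changes of 0.5, 1 and 2, and 5.49% of calls were false. The simulated noise was independent between arrays, with 1 spread per gene that was equal in all groups. On the real arrays the standard deviation of the replicate difference was 0.105 at time zero and 0.239 after 2 h of TFM. These shares may therefore not hold for the real data.

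Named genes were, among those that passed with separate pairs and a level above the unspiked controls, the 15 largest each way and the 5 of smallest p each way. The 5 of smallest p in the difference from isopropanol, the genes of smallest adjusted p in each list and the strain markers were added. The comparison, lists and rule were chosen with earlier results of these data known. The replicate numbers were not taken to pair the compared arrays, since same-numbered deviations of the TFM 1 h and 2 h arrays correlated at -0.10 across genes. Among the other groups in the model this correlation was 0.27 to 0.60 between time zero, isopropanol 1 h and isopropanol 4 h, and -0.47 between TFM 2 h and 4 h. Promoter sequences were not analysed here. Figures used matplotlib 3.10.9.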

Additional observations from a re-analysis of the deposited data

How the results depend on the processing

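The 21 rises and 9 falls became 6 and 0 when only the 6 TFM arrays were fitted, 4 and 0 with only the 4 arrays compared, 40 and 19 with a trended, robust variance, 57 and 30 with the 3′ minus 5′ value as a covariate, and 6 and 0 when a log2 change of at least 1 was also asked. With the dimmest 25% of genes left out (4086 tested) there were 28 and 17. Over the 13 fits that each left out 1 array the rises ran from 5 to 21 and the falls from 0 to 9. The replicate numbers were not taken to pair the TFM 1 h and 2 h arrays; with the replicate number as a block there were 17 rises and 4 falls and 21 of the 30 genes still passed, and with the TFM 2 h numbers crossed, a pairing added after seeing the data, there were 32 and 10. Array weights, median centring, quantile normalization, cyclic loess, probe set rules, the unspiked control filter and the hybridization control covariate (also added later) gave 15 to 31 rises and 6 to 11 falls. The difference from isopropanol, 0 genes as reported, had 2 with array weights, 5 after median centring, 3 after quantile normalization, 3 with the hybridization covariate, 7 with the trended variance, 7 with the 3′ minus 5′ covariate, 6 with the crossed block, 8 with isopropanol 2 h and 4 h together, and 0 to 2 with 1 array left out. The isopropanol change had 0 genes in every setting. No called gene changed direction, but settings that change only the estimate of spread leave the log2 difference as it was. Of 832 values of the 30 genes over these settings, 582 still passed. The 832 include the repeat of the main fit and equal fits without either array of a pair. This share is therefore a description and not a measure of how firm the calls are. The cause of these shifts was not tested. A control from all 5 isopropanol arrays together was not run, since the isopropanol 1 h arrays would then stand on both sides of the difference.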

Other observations

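AQR1, an exporter of short-chain monocarboxylic acids, had a TFM difference of 1.58 ± 0.60 in the second hour and missed the threshold (adjusted p = 0.262). Its 2 TFM 1 h arrays read 9.22 and 10.33 and its TFM 2 h arrays 12.40 and 10.31, so only replicate 1 at 2 h was high. At 4 h it read 11.26 and 12.29. The difference was 0.54 without TFM 2 h replicate 1 and 2.62 without replicate 2.

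A set of dim genes had the opposite pattern between the TFM 2 h replicates. YBL008W-A read 5.99 in replicate 1 and 8.52 in replicate 2, and 7.83 and 6.35 in TFM 4 h replicates 1 and 2. SAE3, a meiotic recombination gene, read 4.53 and 6.24 at 2 h and 6.11 and 5.11 at 4 h. MER1, a meiotic splicing factor, read 6.57 and 8.34 at 2 h and 8.72 and 6.92 at 4 h. HXT14, in the hexose transporter list, read 6.41 and 8.06 at 2 h. The 3′ minus 5′ value of the control transcripts was 1.18 and 1.49 after 2 h of TFM and 1.63 and 1.40 after 4 h, so the 2 arrays on which these genes were high were also the 2 with the highest such value of the 13; its part in these values was not tested. These genes were chosen after their values were seen.

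Several genes came close to the threshold in the second hour. SDS23, a regulator of protein phosphatases in nutrient signalling, had a difference of 0.38 ± 0.07 (adjusted p = 0.0502). TOD6, a repressor of ribosome biogenesis genes, had one of 0.66 ± 0.12 (adjusted p = 0.0551). PEX21, a peroxisomal import receptor, had one of 0.70 ± 0.13 (adjusted p = 0.057), and VID24, which takes part in the breakdown of gluconeogenic enzymes, one of 0.82 ± 0.16 (adjusted p = 0.0649). ICL2, a mitochondrial methylisocitrate lyase, had 0.33 (adjusted p = 0.0734), and HBN1, an oxidoreductase, -0.66 (adjusted p = 0.0739).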
